A study of Rattus norvegicus with 6 samples.

Results

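The genes described here are those of the cytosolic ribosome, the particle that translates messenger RNA outside the mitochondria. They were taken as the protein-coding rows of the deposited table whose gene name starts with Rpl, Rps or Rplp followed by a digit, or is Rpsa, leaving out the S6 kinase genes (Rps6k). The rule gave 92 of the 34510 rows of the table, under 86 distinct names. Of these, 55 rows belong to the large subunit and 36 to the small subunit. The remaining row is Rps19bp1, which encodes a protein that binds RPS19 and is not itself part of the ribosome.

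The samples were cultures of neonatal rat ventricular cardiomyocytes, the contracting muscle cells of the newborn rat's heart. Poly(A) RNA was sequenced in 3 libraries of a group titled Bgal and 3 of a group titled Trim28. An adenovirus expressing TRIM28 was used on the cells, per the series' design text. TRIM28 is a corepressor that zinc finger proteins bring to chromatin. What Bgal stands for, which virus that group received, and the dose, time and batch are not in the labels. Nor do the labels say that libraries came from separate cultures, so the p-values measure how these samples vary, and that variation may be technical. Trim28 itself stood at 77.6 to 87.8 FPKM (fragments scaled by gene length and library total) in the Bgal libraries. In libraries 1 to 3 of the Trim28 group it stood at 2923, 2889.8 and 980.0 FPKM, a log2 change of 4.60 ± 0.39 (SE) with a limma adjusted p of 0.000193. Trim28 library 3 thus carried less of the transcript than the other Trim28 libraries. Wherever 3 values follow each other, they are those of libraries 1 to 3 of a group. Gene reads ranged from 26146166 to 34593292 per library.

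The cells were checked against marker genes. Summed over 8 cardiomyocyte markers, the level was 12146 to 13369 FPKM in Bgal and 10838 to 10955 FPKM in Trim28, so transcripts of the labelled cell type were abundant in both groups. Of these 8 markers 2 rose, among them Myh7, and 4 fell, among them Myl2 and Tnni3. Markers of other cells of the heart were present too and moved with the groups. The 8 fibroblast markers summed to 434 to 453 FPKM in Bgal and 773 to 837 FPKM in Trim28, with 7 higher. The 8 mural cell markers summed to 744 to 998 FPKM and 1588 to 1688 FPKM, with 7 higher. Most of the mural sum was Acta2, with group means of 692 and 1342 FPKM. Leukocyte markers summed to 25.3 to 26.2 FPKM and 57.4 to 58.6 FPKM, with 5 of 6 tested higher, while Aif1 stayed under 0.5 FPKM in each library. Endothelial markers summed to 39.0 to 47.2 FPKM and 89.3 to 92.5 FPKM, with 2 of 3 tested higher and 1 lower, while Cldn5, Emcn and Vwf stayed under 0.5 FPKM. Most of this sum was Eng, with group means of 33.0 and 82.3 FPKM. Tek rose from 1.23 to 2.14 FPKM and Kdr fell from 8.07 to 6.06 FPKM, so the rise of the sum was not shared by all endothelial markers. In bulk RNA, a change in the mix of cells and a change of RNA per cell cannot be told apart, and the part of these markers in the ribosomal protein results was not tested.

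A cytosolic ribosome joins a small subunit, which holds the messenger RNA and reads its codons, and a large subunit, which links the amino acids. Each subunit is built in the nucleolus from ribosomal RNA and from 1 copy of most of its proteins, so the transcripts of ribosomal proteins are abundant and are usually regulated together. Their messenger RNAs typically begin with a run of pyrimidines, the 5′ terminal oligopyrimidine (TOP) tract, through which mTOR signalling and LARP1 set their translation. In heart muscle cells, ribosome production is known to rise during hypertrophic growth. Mammalian genomes also carry many retrocopies of these genes, some nearly identical to the parent, so reads of 1 protein can be shared out over several rows of a table.

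Levels were high, with a median of 239.6 FPKM over the 92 rows (mean of the 6 libraries), and 64 rows at 100 FPKM or more. The most abundant were Rpl41, Rplp0, Rps2, Rpsa and Rpl10. Of the 92 rows, 83 were tested and 9 were not, because they had at least 0.5 FPKM in fewer than 3 libraries. Rpl10a and Rpl23a were listed at 0 in each library. The other untested rows were Rpl8, Rpl3l, Rpl30l1, Rpl35al1, Rplp0l1, Rps15al4 and the Rpl21 row of chromosome 3.

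Among the 83 tested rows, 32 were higher in the Trim28 libraries, 13 were lower and 38 did not pass (limma on log2(FPKM + 1), adjusted p under 0.05). That is 38.6% higher and 15.7% lower. Over all 14808 tested rows of the table, 20.1% were higher and 21.1% lower. The median log2 change was 0.09 over the members and -0.02 over all tested rows. Among called rows the median size of the change, whatever its direction, was 0.31 for the 45 members and 0.43 for all 6097 called rows. Groups did not overlap for 37 members that were higher, against 26% of all tested rows, and for 17 that were lower, against 27.7%. The remaining 29 overlapped. Of the 32 rises 16 passed whichever single library was left out, and of the 13 falls 9 did. Some of these rows belong to proteins whose sum of rows did not pass, as described with the copies. With no Trim28 library 2 the rises numbered 19, and with no Trim28 library 1 they numbered 20. With no Trim28 library 3, the one with less Trim28 transcript, 26 rows rose and 11 fell. Shares over all tested rows are not given for fits that leave out a library, here or below. The lower counts are thus not shown to be particular to the members.

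**Figure D1:**
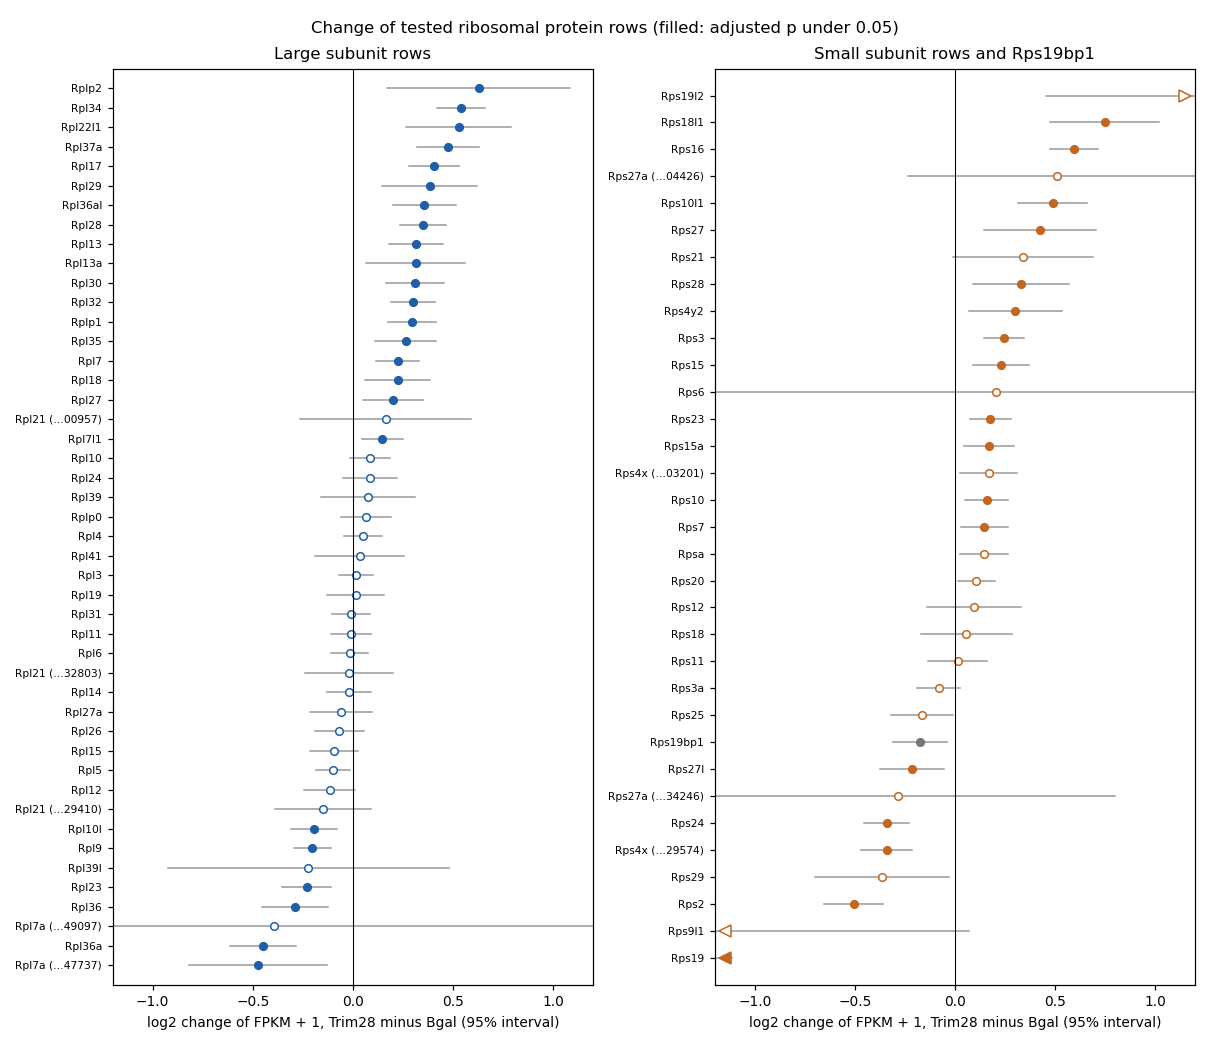
Log2 change of FPKM + 1 (Trim28 minus Bgal, 3 libraries each) for 79 of the 83 tested rows, large subunit on the left and small subunit with Rps19bp1 (grey) on the right; points are estimates, lines 95% intervals, and filled points passed the adjusted p of 0.05. Triangles mark 3 rows beyond the axis, with log2 changes of -2.54 (Rps19), -2.14 (Rps9l1) and 3.17 (Rps19l2), and intervals are drawn to the edge of the axis at most. A reader should see that 30 filled points lie above 0 and 12 below.

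Rises outnumbered falls in both subunits, whose difference was not tested. In the large subunit 18 of 47 tested rows were higher and 7 lower, with a median log2 change of 0.05. In the small subunit 14 of 35 were higher and 5 lower, with a median of 0.15. The member rows took 1.87%, 1.97% and 1.91% of the gene reads in Bgal, against 2.00%, 2.00% and 1.96% in Trim28. Bgal library 2 lay within the Trim28 range on this share. Per unit of length the groups were apart, since members made up 4.74%, 5.00% and 4.76% of the FPKM sum in Bgal, against 5.32%, 5.31% and 5.23% in Trim28. Transcripts of the mitochondrial genome took 7.10% to 8.14% of the gene reads in Bgal and 6.65% to 6.73% in Trim28. With these and Trim28 left out of the total, the members' share of reads was 2.02%, 2.12% and 2.08% in Bgal and 2.16%, 2.16% and 2.11% in Trim28, again with a Bgal library inside the Trim28 range.

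**Figure D2:**
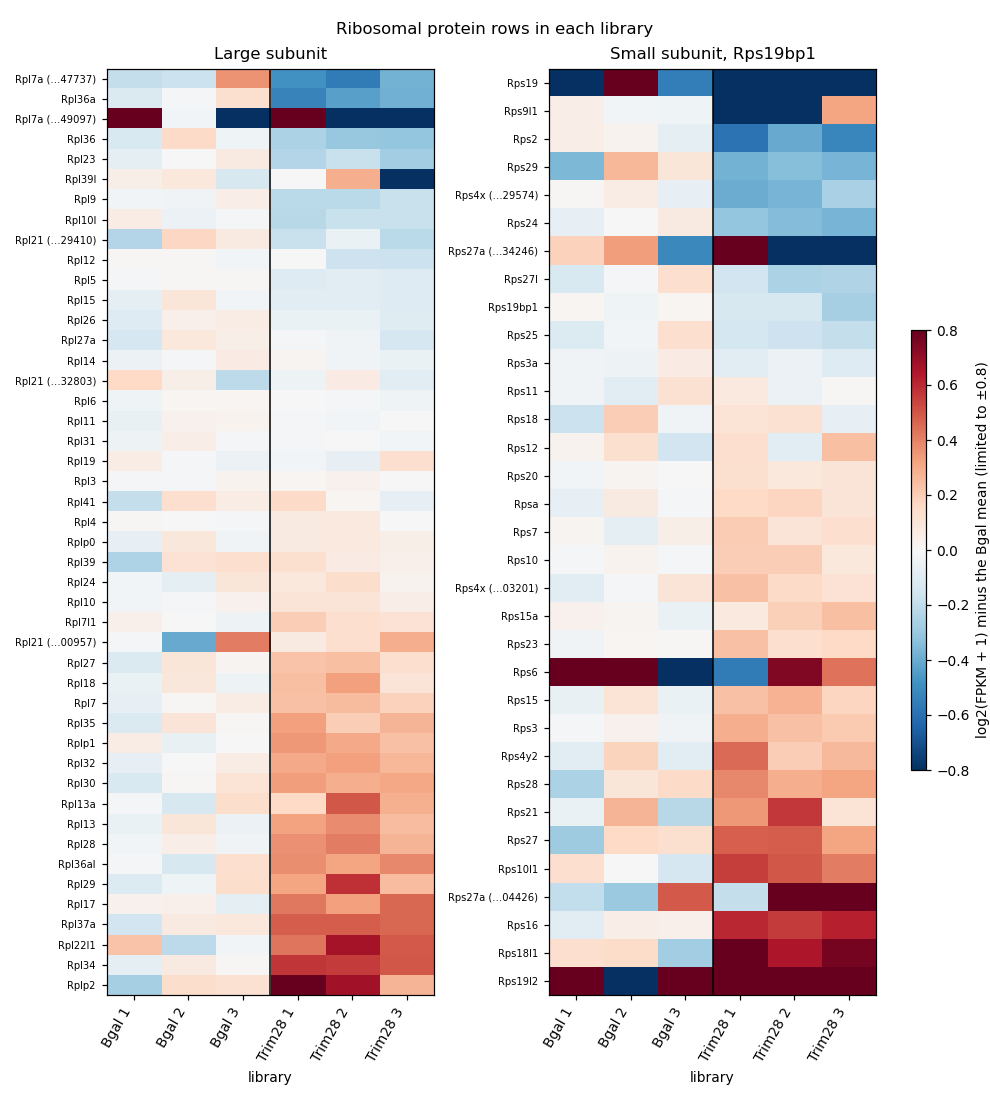
The 79 plotted members (rows of the map) in each of the 6 libraries (columns), coloured by log2(FPKM + 1) minus the mean of the 3 Bgal libraries, with colours limited to 0.8 either way and members ordered by their change within each subunit. Red rows at the bottom are high in each of the 3 Trim28 libraries, while rows such as Rps6, Rps19l2 and both Rps27a rows differ between libraries of the same group.

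The starts of the genes were looked at for the TOP tract, because it is the shared feature of this gene family. RefSeq promoters of the GRCr8 assembly were matched by symbol and chromosome to 61 member rows. A pyrimidine run, defined as a C followed by at least 4 further C or T bases and starting within 5 bases of the annotated start on the gene's strand, was found in 34 of them (55.7%) and in 15.7% of all 33469 promoters of the table. CCGGAAG, the core of ETS family sites, searched on both strands of the same 300-base promoters, was found in 18 of the 61 (29.5%) and in 8.75% of all. Among matched members whose row and sum by annotation gave the same call, described with the copies, the windows of the 6 with the largest rise and then of the 6 with the largest fall are shown, so that the starts of genes that moved in opposite directions can be compared. Each window has 30 bases, of which the last 15 begin at the annotated start, and capitals mark the run where one was found.
Rps16 (chr1:92770643-92770672, plus strand): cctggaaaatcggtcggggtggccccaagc
Rpl34 (chr2:221962269-221962298, minus strand): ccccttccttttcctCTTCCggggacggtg
Rpl22l1 (chr2:113683181-113683210, plus strand): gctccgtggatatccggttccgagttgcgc
Rpl37a (chr9:81748076-81748105, plus strand): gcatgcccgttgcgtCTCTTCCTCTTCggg
Rps27 (chr2:177964592-177964621, minus strand): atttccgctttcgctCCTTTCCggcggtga
Rpl29 (chr8:115947628-115947657, plus strand): gggcctttctctttCTCTTCCggtcccagg
Rps2 (chr10:14251833-14251862, plus strand): cctcttctttttcttcgggaaaacacgtga
Rpl36a (chrX:102059434-102059463, plus strand): ccgcctataaaCTTCCgttgctgctctagc
Rps24 (chr16:96502-96531, plus strand): tgagcggtcctcttttCCTCCTTTacagct
Rpl23 (chr10:83272170-83272199, minus strand): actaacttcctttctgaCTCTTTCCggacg
Rps27l (chr8:76443643-76443672, plus strand): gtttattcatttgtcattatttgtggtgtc
Rpl9 (chr14:43247575-43247604, plus strand): gacgaaggacgttctCTCTTTgccccatct
A run was marked in 4 of the 6 rising and in 4 of the 6 falling genes shown. The sum that placed Rpl36a among the falls left out Rpl36al, which rose. Of the 32 tested members with a run 15 rose and 4 fell, with a median log2 change of 0.15. Of the 24 tested members without one 8 rose and 5 fell, with a median of 0.09. Over all tested rows 20.1% rose and 21.1% fell. These are calls by row. Not all were shared by the sum by annotation, as for Rpl17 with a run and for Rplp2, Rps19 and Rpl36 without one. The difference between members with and without a run was not tested. A window without the run shows only that no such run starts within 5 bases of the annotated start. The Rps2 window, for example, holds only C and T up to that start, in a stretch that begins further upstream than the search reached. Strand and position were not compared between the promoters and the deposited table. Rps16 lies on the plus strand in the former and on the minus strand in the latter.

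The P stalk is the arm of the large subunit that recruits elongation factors, built of RPLP0, which anchors it, and of the acidic proteins RPLP1 and RPLP2. Rplp1 stood at 602, 556 and 579 FPKM in the Bgal group and at 736, 716 and 680.3 FPKM in the Trim28 group. The groups did not overlap, and the log2 change was 0.30 (95% interval 0.18 to 0.42, adjusted p = 0.00355). Rplp0, the second most abundant member, stood at 905, 1007 and 929 FPKM (Bgal) and 996, 997 and 976 FPKM (Trim28), and its log2 difference of 0.06 did not pass (interval -0.06 to 0.19). The Rplp2 row held little, with 0.727, 1.29 and 1.25 FPKM (Bgal) and 2.99, 2.30 and 1.5 FPKM (Trim28). It passed with a log2 change of 0.63 (adjusted p = 0.0364), and it failed in 5 of the 6 fits that left out a library, with adjusted p up to 0.11, and with limma-voom on reads (log2 1.02, adjusted p = 0.093). Most reads of this protein lay in a second row, LOC498555, with 61.9, 68.0 and 70.7 FPKM (Bgal) and 65.0, 79.0 and 65.3 FPKM (Trim28), and the sum of its 5 rows did not pass (log2 0.14, adjusted p = 0.243).

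RPL5 and RPL11 enter the large subunit together with 5S ribosomal RNA, and outside the ribosome they are known to bind MDM2, the ligase that degrades p53. Rpl5 stood at 432, 441 and 439.8 FPKM (Bgal) and 407, 411 and 408 FPKM (Trim28). Each Trim28 library lay below each Bgal library, but the log2 difference of -0.10 did not pass (interval -0.19 to -0.01, adjusted p = 0.0685); with limma-voom on reads it passed (adjusted p = 0.0399). Rpl11 stood at 61.6, 65.9 and 65.5 FPKM (Bgal) and 63.9, 63.2 and 64.5 FPKM (Trim28), with overlapping groups and a log2 difference of -0.01 (interval -0.11 to 0.09).

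Of the other large subunit genes, Rpl34 (ENSRNOG00000016387, chromosome 2, 235850334 to 235852708, minus strand in the deposited table) rose most surely. It stood at 296, 328 and 315 FPKM in the Bgal group and at 465, 461 and 441 FPKM in the Trim28 group, so that the lowest Trim28 library was above the highest Bgal library. Its log2 change was 0.54 ± 0.05 (SE), with an adjusted p of 0.000289. Rpl37a, a zinc-binding protein of the large subunit, stood at 126, 148 and 149 FPKM (Bgal) and 197, 197 and 194 FPKM (Trim28), with a log2 change of 0.48 (adjusted p = 0.00145). Rpl17, whose protein lines the tunnel through which the new chain leaves, stood at 236, 237 and 218 FPKM (Bgal) and 308, 289.6 and 317 FPKM (Trim28), with a log2 change of 0.40. Its second row moved the other way, as described with the copies. The rises of Rpl34, Rpl37a and Rpl17 passed without any single library.

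Rpl29 went from 369 ± 33.7 to 483 ± 61.5 FPKM (SD, n = 3 each), with a log2 change of 0.38, and Trim28 library 2 stood highest at 553 FPKM. Its call was lost without Bgal library 1 (adjusted p = 0.0618) or 2 (0.0565). Rpl28 (0.35), Rpl13 (0.32), Rpl32 (0.30), Rpl30 (0.31) and Rpl7 (0.22) also rose on the log2 scale and passed without any single library. Rpl13a (0.31), Rpl35 (0.26), Rpl18 (0.22) and Rpl27 (0.20) passed with all 6 libraries, and their calls were lost in fits that left out a library. That was so for Rpl35 without Trim28 library 1 (adjusted p = 0.0594), and for Rpl13a, Rpl18 and Rpl27 without any 1 of 4 libraries (adjusted p up to 0.134). The Rpl13a row held only 10.1 to 12.3 FPKM in Bgal and 12.4 to 16 FPKM in Trim28.

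Fewer large subunit genes fell. Rpl36a (ENSRNOG00000011494, chromosome X, 105402867 to 105405580, plus strand), whose protein lies near the exit site for transfer RNA, stood at 139, 149 and 165 FPKM in the Bgal group and at 104, 112 and 115 FPKM in the Trim28 group. The groups were apart, with a log2 change of -0.45 ± 0.07 (SE) and an adjusted p of 0.00229. Rpl23 stood at 485, 509.9 and 536 FPKM (Bgal) and 434, 450.0 and 421 FPKM (Trim28), with a log2 change of -0.23. Rpl9 fell as well, by 0.20 on the log2 scale, and was among the tightest, at 221 to 234 FPKM in Bgal and 194 to 199 FPKM in Trim28. These 3 falls passed without any single library. Rpl36al, annotated to the same protein as Rpl36a, rose, as described with the paralogs. Rpl36 fell by row, at 398, 481 and 422 FPKM (Bgal) and 363, 350.3 and 348 FPKM (Trim28) (log2 -0.29), while a row annotated as its pseudogene rose, so that the sum of its 14 rows gave a log2 difference of -0.04.

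Several of the core large subunit genes had differences close to 0. Rpl41, the most abundant member, stood at 903, 1131 and 1075 FPKM (Bgal) and 1147, 1043 and 985 FPKM (Trim28), and Bgal library 1 was lowest. Its log2 difference of 0.03 had an interval of -0.19 to 0.26. Rpl10, whose protein joins late and completes the large subunit, stood at 641 to 666 FPKM in Bgal and 674 to 699 FPKM in Trim28. The groups were apart, yet the log2 difference of 0.09 did not pass (adjusted p = 0.142). Rpl3, Rpl4, Rpl6, Rpl14, Rpl19 and Rpl31 were among the 22 members that did not pass and had a log2 difference within 0.1 of 0.

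In the small subunit, Rps16 (ENSRNOG00000019578, chromosome 1, 85405512 to 85408444, minus strand) gave the smallest p-value among the members. Its protein reaches with its tail to the transfer RNA in the decoding site. Rps16 stood at 192, 212 and 210.1 FPKM in the Bgal group and at 311, 301 and 315 FPKM in the Trim28 group. All Trim28 values were above all Bgal values, with a log2 change of 0.59 ± 0.05 (SE, adjusted p = 0.000196), and the sum of its rows gave 0.61. Rps27, a zinc-binding protein, stood at 301, 410.1 and 402 FPKM (Bgal) and 513, 516 and 457 FPKM (Trim28), and Bgal library 1 was the lowest. Its log2 change of 0.43 (adjusted p = 0.0248) did not pass without Trim28 library 1 (adjusted p = 0.0728) or library 2 (0.0756), and was 0.28 without Bgal library 1.

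Rps3, which sits where messenger RNA enters the subunit, rose from 400.3, 413 and 396 FPKM to 493, 474 and 467 FPKM, with a log2 change of 0.25 that passed without any single library. Rps28 (0.33), Rps15 (0.23), Rps23 (0.18), Rps15a (0.17), Rps10 (0.16) and Rps7 (0.15) rose on the log2 scale too. These 6 calls depended on single libraries. Rps23 was lost without Trim28 library 1 (adjusted p = 0.0735), Rps15 without Bgal library 1 or Trim28 library 1 or 2 (up to 0.0691) and Rps28 without any 1 of the Trim28 libraries (up to 0.103), while without Bgal library 1 its log2 change was 0.20. Rps10, Rps15a and Rps7 were lost without any 1 of 4 or 5 libraries (up to 0.16). Rpsa, named after the laminin receptor precursor and a late-joining protein of the subunit, stood at 705, 775 and 733 FPKM (Bgal) and 822, 832 and 792 FPKM (Trim28). Its groups were apart, but the log2 difference of 0.15 did not pass (adjusted p = 0.0563). Bgal library 2 was the highest of its group, and without it the adjusted p was 0.0354.

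Rps2 (ENSRNOG00000014179, chromosome 10, 14088319 to 14089979, plus strand), an abundant protein near the entry of the messenger RNA channel, fell. It stood at 1013, 999 and 925 FPKM in the Bgal group and at 649, 738 and 682 FPKM in the Trim28 group. Each Trim28 library was lower than each Bgal library, with a log2 change of -0.51 ± 0.06 (SE) and an adjusted p of 0.000915. Rps24 stood at 477, 498 and 524 FPKM (Bgal) and 403, 393 and 386 FPKM (Trim28), with a log2 change of -0.34 (adjusted p = 0.00150). Both falls passed without any single library. Rps19bp1, the binding partner that the name rule brings in, stood at 19.0 to 19.7 FPKM in Bgal and 16 to 17.7 FPKM in Trim28 (log2 -0.17, adjusted p = 0.0453), a call lost without any 1 of the 6 libraries (adjusted p up to 0.123).

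Rps6 encodes the protein that S6 kinases phosphorylate in response to growth signals. Its row varied within each group, at 176, 156 and 10.6 FPKM in the Bgal group and at 45.5, 113 and 91.7 FPKM in the Trim28 group. Bgal library 3 was far below the other libraries, and the estimated log2 difference of 0.21 had an interval of -2.11 to 2.52, so no direction could be read. Without Bgal library 3 the estimate was -1.08, also not passed. Rps9l1 stood at 33.1, 31.4 and 31.2 FPKM (Bgal) and 3.98, 1.05 and 39.9 FPKM (Trim28), where Trim28 library 3 was above the Bgal libraries and the other Trim28 libraries far below them. Its log2 difference of -2.14 did not pass, but a fall passed without Trim28 library 3 (-3.36, adjusted p = 0.000998) and with limma-voom on reads (-2.49, adjusted p = 0.0167). Within groups, the median SD over the tested members was 0.08 on the log2 scale, against 0.11 over all tested rows, and the highest was 1.93.

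Paralogs are genes related to that of a ribosomal protein, and the products of some can take its place. The list held Rpl3l, Rpl7l1, Rpl10l, Rpl22l1, Rpl26l1, Rpl36al, Rpl39l, Rps27l and Rps4y2. It also held Rps4x, the X-linked relative of Rps4y2, with its rows. Of its 9 tested rows 4 rose (44.4%) and 3 fell (33.3%), against 20.1% and 21.1% of all tested rows. One of the falls was the Rps4x row of chromosome 4, whose sum with the X-linked row differed by only 0.04 on the log2 scale. Rpl22l1 stood at 53.9, 39.5 and 45.2 FPKM in the Bgal group and at 62.1, 73.2 and 64.9 FPKM in the Trim28 group, with no overlap and a log2 change of 0.53 (adjusted p = 0.00832). Rpl22 has no row under its own name, and the sum of the 3 rows annotated to its protein went from 153, 162 and 176 FPKM to 203, 216 and 203 FPKM (log2 0.34), so both genes of this pair rose.

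In other pairs the directions by row were opposite. Rpl36al, the retroposed relative of Rpl36a, stood at 158, 146 and 175 FPKM (Bgal) and 206, 198 and 209 FPKM (Trim28), a log2 change of 0.36 (adjusted p = 0.00503), while Rpl36a fell by 0.45 on the log2 scale. The parent was close to the paralog in level in the Bgal libraries, with means of 151 and 159.7 FPKM, and stood at 110.4 against 204 FPKM in the Trim28 libraries. Both rows are annotated to the same protein, and they were not added up. Whether the pair changed as a whole was thus not tested, nor was a trade of reads between its rows. Rps27l, a known p53 target, stood at 136, 147 and 162 FPKM (Bgal) and 133, 124 and 125 FPKM (Trim28) (log2 -0.22, adjusted p = 0.0381), while Rps27 rose. The Rps27l call was lost in 5 of the 6 fits that left out a library, with adjusted p up to 0.111.

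Rpl7l1 rose slightly (66.7 to 70.5 FPKM in Bgal and 74.4 to 78.7 FPKM in Trim28, log2 0.15). Rps4y2, a relative of the X-linked Rps4x, held 12.4 to 15.2 FPKM in Bgal and 15.4 to 18.6 FPKM in Trim28 (log2 0.30). Rpl10l, known mainly from testis, fell, at 26.3 to 28.3 FPKM in Bgal and 23.1 to 23.9 FPKM in Trim28 (log2 -0.19). Each of these 3 calls failed in at least 2 of the 6 fits that left out a library, with adjusted p up to 0.134 for Rps4y2. Rpl39l held 1.58, 1.66 and 1.28 FPKM in Bgal and 1.51, 2.06 and 0.279 FPKM in Trim28. Rpl3l, the striated muscle paralog of Rpl3, reached at most 0.396 FPKM in any library, while Rpl3 stood at 141 to 146 FPKM in Bgal and 143 to 146 FPKM in Trim28.

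Diamond-Blackfan anaemia, an inherited failure of red cell production, is caused by loss of 1 copy of any of several ribosomal protein genes. Of 16 tested rows from a list of 18 of these genes, 8 rose (50%) and 2 fell (12.5%), against 20.1% and 21.1% of all tested rows. Rps27 and Rps28 were among the rises and Rps19 and Rps24 were the falls. The median log2 change was 0.07. The count of rises depended on single libraries, since without Trim28 library 1 it was 1 and without Trim28 library 2 it was 2. Calls by row and by sum differed for some of these genes, and the fall of the Rps19 row did not appear in its sum, as described below. Rps26 and Rpl35a of the list have no row under their own symbol. As sums by annotation, Rps26 fell and Rpl35a did not pass.

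Rows of 1 protein were then added up, because reads of near-identical copies can be assigned to either row and the deposited table does not show how they were shared out. Among the members 22 rows fell into 10 proteins with more than 1 row. Rps19, the gene most often mutated in Diamond-Blackfan anaemia, had the largest fall of any member by row, a log2 change of -2.54. It stood at 77.4, 377 and 95.8 FPKM in the Bgal group and at 39.7, 14.2 and 22.8 FPKM in the Trim28 group. The second row, Rps19l2 on chromosome 9, ran the opposite way within both groups, at 90.6, 2.76 and 89.3 FPKM (Bgal) and 168, 392 and 341 FPKM (Trim28). In Bgal library 2 Rps19 held 99.3% of the reads of the pair, in Trim28 library 2 it held 3.86%. Added up, the pair stood at 168, 380.0 and 185 FPKM (Bgal) and 208, 406 and 364 FPKM (Trim28). The groups then overlapped, and the log2 difference was 0.46 with an adjusted p of 0.333, so the fall of the Rps19 row did not appear in the sum. The Rps19l2 row did not pass with all libraries, and it passed as a rise without Bgal library 2 (log2 1.64, adjusted p = 0.0126).

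Rps27a, which encodes ubiquitin fused to a small subunit protein, showed the reverse. Its row on chromosome 14 stood at 272, 254 and 439 FPKM (Bgal) and 273, 557 and 578 FPKM (Trim28), and its row on chromosome 5 at 273, 302 and 168 FPKM (Bgal) and 434, 135 and 130.0 FPKM (Trim28). Neither passed, and within each group a library high in 1 row was low in the other. Without Trim28 library 1 both passed, the first as a rise (log2 0.86, adjusted p = 0.0278) and the second as a fall (-0.85, adjusted p = 0.0341). Their sum was tight, at 545, 557 and 606 FPKM in the Bgal group and at 707, 693 and 708 FPKM in the Trim28 group, and rose by 0.30 on the log2 scale (adjusted p = 0.00324). The sum passed without any single library. The Rpl7a rows summed to 77.8, 49.3 and 40.7 FPKM (Bgal) and 141, 21.7 and 24.5 FPKM (Trim28), with Trim28 library 1 the highest of all, and the log2 difference of -0.33 did not pass (interval -1.88 to 1.21). Without Trim28 library 1 the sum passed as a fall (log2 -1.19, adjusted p = 0.0131). The lower row alone had passed as a fall, at 13.6, 13.8 and 20.4 FPKM (Bgal) and 10.9, 10.3 and 11.8 FPKM (Trim28), and that call was lost without any 1 of the Trim28 libraries. Without Bgal library 3 its log2 change was -0.29, against -0.47 with all libraries.

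For Rps4x, the row on chromosome 4 fell (111 to 121 FPKM in Bgal and 87.9 to 96.9 FPKM in Trim28, log2 -0.34) and the row on the X chromosome stood at 269 to 309 FPKM in Bgal and 311 to 339 FPKM in Trim28 (log2 0.17, adjusted p = 0.0597), passing without Bgal library 3 (adjusted p = 0.022). Their sum gave a log2 difference of 0.04 (adjusted p = 0.546). Rps10 and Rps10l1 both rose, and so did their sum (log2 0.22, adjusted p = 0.00831). Rps18l1, the member with the largest called rise at 23.5, 23.7 and 17.4 FPKM (Bgal) and 38.7, 34.0 and 37.0 FPKM (Trim28), held at most 6.3% of the reads of its pair, and the sum with Rps18 did not pass (log2 0.18). Without Bgal library 2, that sum passed with a log2 change of 0.28 (adjusted p = 0.0127). Over all proteins with a member row, 75 sums were tested, of which 31 rose (20.1% of all tested features in this fit rose) and 10 fell (21.1%), with a median log2 change of 0.10. Without Trim28 library 1, or without library 2, the rises numbered 19.

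**Figure D3:**
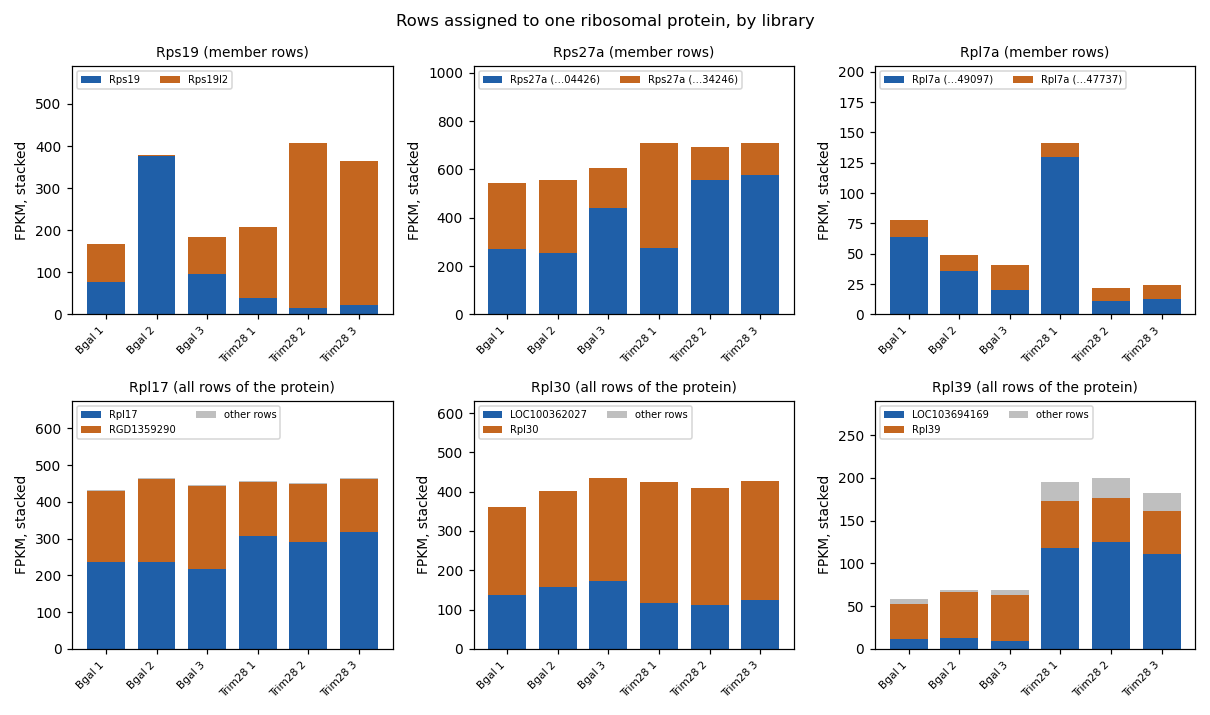
FPKM of the rows assigned to 1 protein, stacked, in each of the 6 libraries: Rps19, Rps27a and Rpl7a by member rows, and Rpl17, Rpl30 and Rpl39 with the rows of other names that carry the same protein annotation. The paralog Rpl39l is left out of the Rpl39 stack. The Rps19 and Rps27a rows trade places between libraries of 1 group, the log2 difference of the whole stack is 0.03 for Rpl17 and 0.08 for Rpl30, and the Rpl39 stack is at 58.1 to 68.6 FPKM in Bgal and 183 to 200.2 FPKM in Trim28.

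Many further rows carry a ribosomal protein in their Swiss-Prot annotation under a placeholder name. Adding all of them brought in 595 rows, 376 of them protein-coding and 158 processed pseudogenes. Member rows were still added by name alone. So Rpl36al, Rpl39l and Rps4y2, annotated to the proteins of Rpl36a, Rpl39 and Rps4x, stayed out of those sums. Of 79 sums with a member row, 30 rose (20% of all tested features in this fit rose) and 11 fell (21.3%), with a median log2 change of 0.09. Without Trim28 library 1 the counts were 17 and 7. Of the 32 rows that rose, 27 belonged to a sum that rose as well, and of the 13 that fell, 9 belonged to a sum that fell. Conversely 5 rows that had not passed belonged to a sum that rose and 1 to a sum that fell. The counts were close to those by row, while some single proteins changed their call.

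Some called rises were offset by another row. Rpl17 was matched by RGD1359290, which stood at 195, 226 and 226 FPKM (Bgal) and 147, 159 and 146 FPKM (Trim28), and the sum differed by 0.03 (interval -0.07 to 0.13). Rpl30 stood at 224, 245 and 263 FPKM (Bgal) and 307, 297 and 302 FPKM (Trim28), and LOC100362027 of the same annotation at 138, 157 and 172 FPKM (Bgal) and 117, 112 and 124 FPKM (Trim28), with a log2 difference of 0.08 for the sum. For both proteins the rise of the named row did not appear in the sum of rows.

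By FPKM, other sums moved further than the named row. The Rpl39 row, a small protein of the exit tunnel, stood at 41.7, 53.8 and 54.6 FPKM (Bgal) and 54.3, 52.0 and 51.2 FPKM (Trim28) and did not pass. LOC103694169, a row with the same annotation, stood at 11.2, 12.1 and 8.77 FPKM (Bgal) and 118, 125 and 111 FPKM (Trim28). Together the 9 rows stood at 58.1, 68.6 and 68.5 FPKM (Bgal) and 195, 200.2 and 183 FPKM (Trim28), a log2 change of 1.55 ± 0.07 (SE, adjusted p = 2.39e-05). The gene length of the Rpl39 row is 2126 bases and that of LOC103694169 is 156 bases, so a read weighs more in FPKM in the latter. As CPM (reads scaled to each library's gene reads), the 9 rows stood at 94.4, 119 and 119 in Bgal and 142, 138 and 135 in Trim28, and limma-voom on reads gave a log2 change of only 0.33 (adjusted p = 0.00749). By reads, LOC103694169 held 1.1% to 1.9% of this protein in Bgal and 13.0% to 14.2% in Trim28. Rps28 rose from 179, 218 and 221 to 322, 312 and 317 FPKM as a sum of 9 rows (log2 0.62). The Rps2 sum fell less than its row, by 0.27 on the log2 scale, since 2 other rows stood higher in the Trim28 libraries. Rps29, at 527 to 811 FPKM in Bgal and 519.8 to 532 FPKM in Trim28 by row (log2 -0.36, not passed), came to -0.07 as a sum. Without Bgal library 1 both passed as falls, the row at -0.54 (adjusted p = 0.00169) and the sum at -0.24 (adjusted p = 0.0275), and with limma-voom the row passed (adjusted p = 0.0249).

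**Figure D4:**
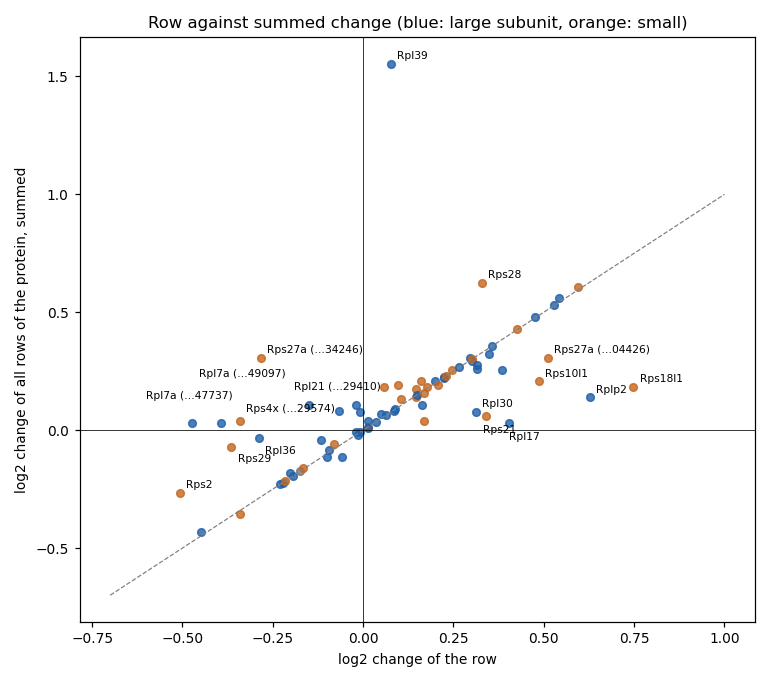
Log2 change of tested member rows (horizontal) against the change of their sum by annotation (vertical), for 76 of the 79 rows in the map by library. Those left out for scale are Rps19, Rps19l2 and Rps9l1, and listed paralogs are kept apart from their parents in the sums. Points on the dashed line have the same change by row and by sum; Rpl17, Rpl30 and Rps18l1 lie below it, and Rpl39 (0.08 by row, 1.55 by sum of FPKM, 0.33 by reads) lies far above it.

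A set of 79 cytosolic ribosomal protein symbols was compared with the members. Under their own symbol 69 had a member row, and the remaining 10 included Rpl22, Rpl35a, Rpl37, Rpl38, Rps9, Rps13, Rps14, Rps26 and Fau. Each of these had rows by annotation. Rps13 stood at 38.4, 39.7 and 44.5 FPKM (Bgal) and 80.0, 78.8 and 84.5 FPKM (Trim28) over 2 rows, a log2 change of 0.97 (adjusted p = 7.59e-05). Rps14 rose from 449, 426 and 428 to 551, 541 and 507 FPKM (log2 0.29). Rps26, which contacts messenger RNA at the exit site, fell from 237, 237 and 239.9 to 182, 176 and 172 FPKM over 11 rows (log2 -0.43, adjusted p = 0.000219). The Rpl37 sum fell by 0.36 on the log2 scale, with a call that was lost in 5 of the 6 fits without 1 library (adjusted p up to 0.127). Of the member rows at or near 0, Rpl8 came to 35.0, 44.0 and 39.6 FPKM (Bgal) and 28, 29.4 and 22.7 FPKM (Trim28) as a sum of 4 rows and fell (log2 -0.55). Rpl10a came to 5.22, 3.84 and 5.20 FPKM (Bgal) and 33.9, 23.6 and 5.07 FPKM (Trim28), with Trim28 library 3 in the Bgal range, and its log2 difference of 1.60 did not pass. It passed without Trim28 library 3 (2.36, adjusted p = 0.000403) and with a filter of 5 FPKM (1.60, adjusted p = 0.0362).

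Rack1 and Fau, which the naming rule leaves out, did not pass by row. Rack1, a scaffold protein on the head of the small subunit, stood at 216 ± 12.6 and 226 ± 6.06 FPKM (Bgal and Trim28, SD, n = 3 each). Fau, which encodes RPS30 behind a ubiquitin-like protein, varied between libraries, with 243, 104 and 85.4 FPKM (Bgal) and 275, 170.5 and 114 FPKM (Trim28).

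The ribosome of the mitochondrion is built from a separate set of nuclear genes and translates the few messenger RNAs of the mitochondrial genome. Its 76 rows, taken by name, moved mostly down. Of 74 tested, 3 rose (4.05%) and 44 fell (59.5%, against 21.1% of all tested rows), with a median log2 change of -0.24. Mrps18c went from 29.5 ± 1.65 to 14.9 ± 0.851 FPKM, Mrpl48 from 42.1 ± 1.94 to 25.9 ± 0.354 FPKM and Mrps9 from 39.0 ± 0.739 to 25.6 ± 1.13 FPKM (SD, n = 3 each). Their share of gene reads was 0.383% to 0.388% in Bgal, against 0.326% to 0.330% in Trim28. The difference between the 2 kinds of ribosome was not itself tested.

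Among other transcripts known to carry a TOP tract, falls outnumbered rises. Of 21 tested (translation factors, Npm1, Hnrnpa1 and others) 2 rose (9.52%) and 8 fell (38.1%), against 20.1% and 21.1% of all tested rows, with a median log2 change of -0.08. Npm1, which encodes the nucleolar chaperone nucleophosmin, went from 181 ± 8.37 to 116 ± 4.26 FPKM (log2 -0.64), Hnrnpa1, an RNA-binding protein, from 168 ± 6.38 to 109.8 ± 6.31 FPKM and Eif3k, an initiation factor subunit, from 105 ± 3.10 to 76.5 ± 0.353 FPKM (SD, n = 3 each). The 2 rises were Vim (0.34), the intermediate filament gene vimentin, and Eef1b2 (0.16). Among 48 tested genes of ribosome assembly 3 rose (6.25%) and 7 fell (14.6%), both below these shares of all tested rows, with a median of -0.02. Nmd3, the export adaptor of the large subunit, went from 43.1 ± 0.313 to 29.3 ± 1.41 FPKM, and Ltv1, an assembly factor of the small subunit, from 25.1 ± 0.513 to 18.1 ± 1.21 FPKM. Ncl, the nucleolar protein nucleolin, fell by 0.26 on the log2 scale.

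Of 12 tested genes of RNA polymerase I, which transcribes ribosomal RNA, and its factors, 2 rose and 2 fell (16.7% each, against 20.1% and 21.1% of all tested rows). Polr1c fell by 0.41 and Rrn3, the initiation factor, by 0.28 on the log2 scale, while Polr1b rose by 0.30. Poly(A) selection removes ribosomal RNA itself, which was not measured. Of 17 tested genes that control growth and TOP translation, 1 rose (5.88%) and 4 fell (23.5%), against the same shares of all tested rows. Larp4b, a LARP family protein, went from 45.6 ± 2.68 to 31.4 ± 1.98 FPKM and Rps6kb1, an S6 kinase, from 31.6 ± 1.67 to 24.9 ± 1.14 FPKM, while Myc, a driver of ribosome production, rose from 4.36 ± 0.788 to 6.22 ± 0.502 FPKM (SD, n = 3 each). The call of Polr1b was lost without Bgal library 1 (adjusted p = 0.051), that of Rrn3 without any 1 of 5 libraries (adjusted p up to 0.123) and that of Myc without any 1 of 4 (up to 0.072).

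Ribosomal protein rows are short, with a median length of 669 bases against 2154 over all tested rows. Across the 83 tested members, the change went with length weakly (Spearman rho -0.25, described over genes, which are not independent and share libraries). The median length was 556 bases for the members that rose, 704 bases for those that fell and 772.5 bases for those that did not pass. Over all tested rows rho was 0.11. The part of length in the members' changes was not tested.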

How the data were processed

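Poly(A) RNA of 6 libraries was read in pairs, per the labels' protocols, from kits that mark the second strand with dUTP. The deposited table holds FPKM per gene and library, per the file headers. Per the submitters' processing notes, the authors' tools included HISAT2 2.0.5 and DESeq2. How reads that map to several copies were counted, the counting tool, strand setting, genome build and annotation release: not given in the sources used here. Names, classes, lengths, coordinates and Swiss-Prot annotation are those of the table. Columns belonging to other samples numbered 0. Reads per gene were recovered from FPKM times gene length, which was a whole multiple (within 0.01) of each library's step in 100% of non-zero values; whether 1 read is a fragment or a mate is not known. Shares of reads and one alternative test use them.

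The test took the 14808 rows that reached 0.5 FPKM in 3 or more libraries, as log2(FPKM + 1), in limma (3.58.1, R 4.3.3) with a trended prior variance, Benjamini-Hochberg adjustment over all tested rows and a threshold of 0.05. Changes are Trim28 minus Bgal on that scale, which understates the change of low rows. All tests were two-sided, and intervals are 95%. The same fit was run on tables in which rows of 1 protein had been added up, first by member name. Rows outside the rule were then added by Swiss-Prot code, while member rows stayed with their name and listed paralogs stayed apart. Alternatives were other pseudocounts, filters and scalings, limma-voom on the recovered reads, the replicate number as a block, and leaving out each library. The fits were tested on simulated data.

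Replicate libraries were more different than sampling alone gives (chi-square per degree of freedom 5.77 to 17.4), so each counted once. The number of libraries limits the precision. Members and lists were chosen with earlier results of these data known. Named members are the 10 largest called rises and falls, the P stalk and 5S genes, tested paralogs, the 5 most abundant, and up to 10 whose sum gave another call; of each list, the 3 smallest p-values. Other members are given by counts or with their change, and those named beyond this rule were chosen after their values were seen; single values of a few members are not reported here. RefSeq promoters (GRCr8) were matched by symbol and chromosome; no genome or protein sequence was used.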

Additional observations from a re-analysis of the deposited data

How the results depend on the processing

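The counts of ribosomal protein calls depended on single libraries and on the filter. Shares of all tested rows called in these fits are not given here, for these counts or for those of the lists below. Whether the table as a whole lost calls alike was thus not compared. Rises by row ranged from 19 to 29 and falls from 10 to 14 when 1 library was left out, rises of summed members from 19 to 28 and falls from 8 to 10, and rises of the sums by annotation from 17 to 29 and falls from 7 to 11, against 32 and 13, 31 and 10, and 30 and 11 with all 6 libraries. With no filter, 20 rows rose. The same genes are not implied by these counts: 16 rises and 9 falls by row passed in every setting run. Among these were the rows of Rpl17, Rps18l1, Rps19, Rpl36 and, on chromosome 4, Rps4x, whose sums by annotation did not pass. With the replicate number as a block, 27 rows rose and 11 fell. Same-numbered libraries deviated together with correlations of -0.02, 0.13 and 0.01, so the numbers were not taken to pair the libraries.

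With voom on reads 33 rows rose and 16 fell, and with median-of-ratios scaling 35 and 11. The cause of these differences was not tested. The members' share of 1.92% of reads in Bgal and 1.99% in Trim28 became 4.84% and 5.29% of the FPKM sum, and 2.07% and 2.14% without mitochondrial transcripts and Trim28.

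Counts of rises in the other lists moved where they were small. With no filter 2 Diamond-Blackfan genes rose, 1 P stalk gene rose, 1 polymerase I gene fell, and of the growth control genes 0 rose and 2 fell. With a filter of 5 FPKM 5 assembly genes, 2 leukocyte markers, 1 endothelial marker and 1 P stalk gene rose. With voom 1 gene of the 5S pair and 4 Diamond-Blackfan genes fell, and 2 growth control genes and 1 P stalk gene rose. With median-of-ratios scaling 2 growth control genes fell. With the replicate block 2 growth control genes rose, as did 1 gene each of the P stalk, the polymerase I list, the other TOP transcripts and the genes outside the name rule, and 1 polymerase I gene fell. Leaving out 1 library, the rises were 1 to 7 for Diamond-Blackfan genes, 1 to 2 for the P stalk, 3 to 6 for mitochondrial ribosomal proteins, 1 to 2 for other TOP transcripts, 2 to 6 for assembly, 0 to 2 for polymerase I and 0 to 2 for growth control, and the falls were 1 to 2 for polymerase I and 2 to 3 for growth control.

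Changes of direction were seen for values that had not passed with all 6 libraries, of which the Rpl7a row and sum of member rows, the Rps27a row and the Rps29 sum by annotation passed as falls without 1 library. On the log2 scale and leaving out 1 library, these ranged from -0.040 to 0.0088 for Rpl11 (0.0062 with median-of-ratios scaling), -0.48 to 0.15 for Rpl39l, -0.062 to 0.10 for Rpl41, -0.046 to 0.15 for Rpl39, -1.08 to 0.89 for Rps6, -0.85 to 0.015 for the Rps27a row ENSRNOG00000034246 and -1.50 to 0.20 for the Rpl7a row ENSRNOG00000049097. For sums of member rows they ranged from -0.041 to 0.18 for Rpl21 and -1.19 to 0.13 for Rpl7a. For sums by annotation they ranged from -0.10 to 0.022 for Rpl36, -0.29 to 0.21 for Rpl7a and -0.24 to 0.054 for Rps29. Over all genes and sums tried under the alternatives, 1522 results kept side and direction, 146 lost the call, 36 gained one and 21 changed direction. A row of few reads or with copies elsewhere limits what these 6 libraries can show.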
